A study of Mus musculus with 6 samples.

Results

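Mirtrons and other miRNAs made without the nuclease Drosha were followed in blood progenitor cells of mice with Raptor targeted for deletion and of control mice. They were taken by name: every mouse-named probe numbered exactly miR-320, miR-484, miR-877, miR-1224 or miR-1981, whatever its arm, star or -P ending. This gave 10 probes for 5 of the 534 mouse miRNAs on the array, and 10 of its 1083 mouse-named probes. Of the 10, 6 are mature probes (mmu-miR-320, mmu-miR-484, mmu-miR-877, mmu-miR-877*, mmu-miR-1224 and mmu-miR-1981). The other 4 end in -P (miR-320, miR-484, miR-1224 and miR-1981), which was read as a probe of the precursor, a meaning the labels do not state. The 8 same-named human probes were read as a check.

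The RNA came from lineage-negative, cKit-positive bone marrow stem and progenitor cells of female C57BL/6 mice, 10 weeks of age, 1 mouse per array. All 6 mice carried Raptor alleles with loxP sites (genotype Rprtf/f), and both groups received 400 µg of polyinosinic:polycytidylic acid 7 times. The 3 cKO mice also carried the Cre transgene (Mx1-Cre+) and the 3 Ctrl littermates did not (Mx1-Cre-); marrow was taken 10 days after the last injection. The Mx1 promoter answers to interferon and is not restricted to blood cells, and the array did not measure how much of Raptor was lost.

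Most miRNAs are cut out of a long primary transcript in the nucleus by Drosha and its partner DGCR8, and the resulting hairpin is then cut by Dicer. A mirtron bypasses the first cut: it is a short intron that folds into a hairpin after splicing. The hairpins of miR-320 and miR-484 also form without Drosha, as short capped transcripts. Raptor is the subunit that brings substrates to mTORC1, the kinase complex that couples nutrients to protein synthesis, and the title of the series is about mTORC1 and miRNA production. Comparing cKO with Ctrl here describes probes of miRNAs reported to skip Drosha. That they skip it in these cells was not measured. No contrast with Drosha-dependent miRNAs was tested, so the comparison does not show at which step mTORC1 might act.

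RefSeq (build GRCm38.p6) held hairpins for 4 of the 5 miRNAs, Mir484, Mir877, Mir1224 and Mir1981. They are shown because their ends set the mirtrons apart; capitals mark a GU at the first 2 bases and an AG at the last 2, the letters that begin and end a spliced intron.
Mir877: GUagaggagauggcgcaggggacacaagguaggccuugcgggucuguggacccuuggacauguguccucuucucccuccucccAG
Mir1224: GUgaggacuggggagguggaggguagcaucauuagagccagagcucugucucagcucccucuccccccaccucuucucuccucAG
Mir1981: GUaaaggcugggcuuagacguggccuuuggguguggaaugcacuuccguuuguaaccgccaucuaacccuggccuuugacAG
Mir484: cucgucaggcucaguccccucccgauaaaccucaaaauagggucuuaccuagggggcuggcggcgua

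Mir877 lies at chr17:35960730-35960814 on the minus strand, inside the span of Abcf1, a gene of translation initiation. Mir1224 lies at chr16:20604452-20604536 on the plus strand inside Vwa5b2. Mir1981 lies at chr1:184822407-184822488 on the minus strand inside Mtarc2, which encodes a mitochondrial reductase. All 3 are on the strand of the gene around them. Mir484 lies at chr16:14159626-14159692 on the plus strand, in no annotated gene span other than its own. The annotation used gives gene spans without exons, so the intron itself was not read from it.

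A GU start together with an AG end, searched on the hairpin's own strand, was present in these 3 hairpins and in 30 of all 1005 mouse hairpins (2.99%). In these 3 the first mature strand also begins at the first base of the hairpin, which holds for 1.31% of the 991 hairpins with an annotated mature strand when both features are asked for. Pyrimidines made up 90.5% of the last 21 bases in Mir877, 85.7% in Mir1224, 61.9% in Mir1981 and 38.1% in Mir484, against a median of 57.1% over all hairpins.

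Mature strands are shown for some of the miRNAs discussed below, with the seed (bases 2 to 8) in capitals. None was available for miR-320. Which strand the mmu-miR-877 and mmu-miR-1981 probes detect was not checked, because probe sequences are not among the sources used. The 7 mature strands of the 4 miRNAs have 7 different seeds, and none of these is shared with another mouse mature miRNA of the table, so no seed joins the group.
mmu-miR-877-5p: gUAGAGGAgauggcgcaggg
mmu-miR-877-3p: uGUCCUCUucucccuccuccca
mmu-miR-1981-5p: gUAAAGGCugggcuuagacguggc
mmu-miR-484: uCAGGCUCaguccccucccgau

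The share of mouse-named probes above background was 58.4% to 63.8% on cKO arrays and 46.4% to 52.7% on Ctrl arrays, with background set at the 95th percentile of 38 random-sequence probes of that array. The 6 probes for snoRNAs and GAPDH averaged 0.58 higher in cKO on the log2 scale, while the random-sequence probes differed by -0.04. Blood miRNAs (miR-142-5p, miR-181a and miR-223 above background on all 6 arrays, 3 of 6 probes) summed to 25.5 to 45.1 in cKO and 19.1 to 20.5 in Ctrl. Above background on all arrays were also 1 of 3 erythroid probes (miR-486), 1 of 5 stromal probes (miR-214) and 1 of 2 brain probes (miR-9). None of 4 epithelial, 3 muscle and 1 liver probes was above it on all arrays. The 3 erythroid probes together summed to 1.80 to 2.24 in cKO and 1.77 to 2.76 in Ctrl. The 5 stromal probes together summed to 2.39 to 4.12 in cKO and 2.07 to 2.598 in Ctrl. The epithelial probes summed to 1.81 to 2.08 in cKO and 1.54 to 1.75 in Ctrl, and 1 of them, miR-203, rose. Of the stromal probes, miR-145 and both arms of miR-199a were above background on no array, whereas miR-214 was above it on all 6. The part of these shifts in the results below was not tested, and in such bulk RNA fewer cells of a type and less RNA per cell cannot be told apart.

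No probe of the Drosha-independent miRNAs passed the test: of 10, 0 rose, 0 fell and 10 did not pass (limma, Benjamini-Hochberg adjusted p under 0.05 over all mouse-named probes). Over the whole array 6.46% of mouse probes rose and 0.369% fell, 70 and 4 of 1083; with quantile normalization 32 rose and 8 fell, and with snoRNA and GAPDH probes setting the scale 35 rose and 310 fell. At an unadjusted p under 0.05, 3 of the 10 were higher and 0 lower, beside 158 higher and 23 lower of all 1083. These were the mature probes for miR-1981, miR-877 and miR-320. For 2 of the 10, miR-320 and miR-877, all 3 cKO arrays lay above all 3 Ctrl arrays, as they did for 15.8% of mouse probes. The median log2 difference was 0.28 over the 10 probes, 0.44 over the 6 mature probes and 0.10 over the 4 -P probes, beside 0.04 over all mouse probes. With snoRNA and GAPDH scaling, which moved the median of all mouse probes by -0.58, the differences of miR-320 (0.28) and miR-484-P (0.0029) stayed above 0 and the others were below.

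**Figure D1:**
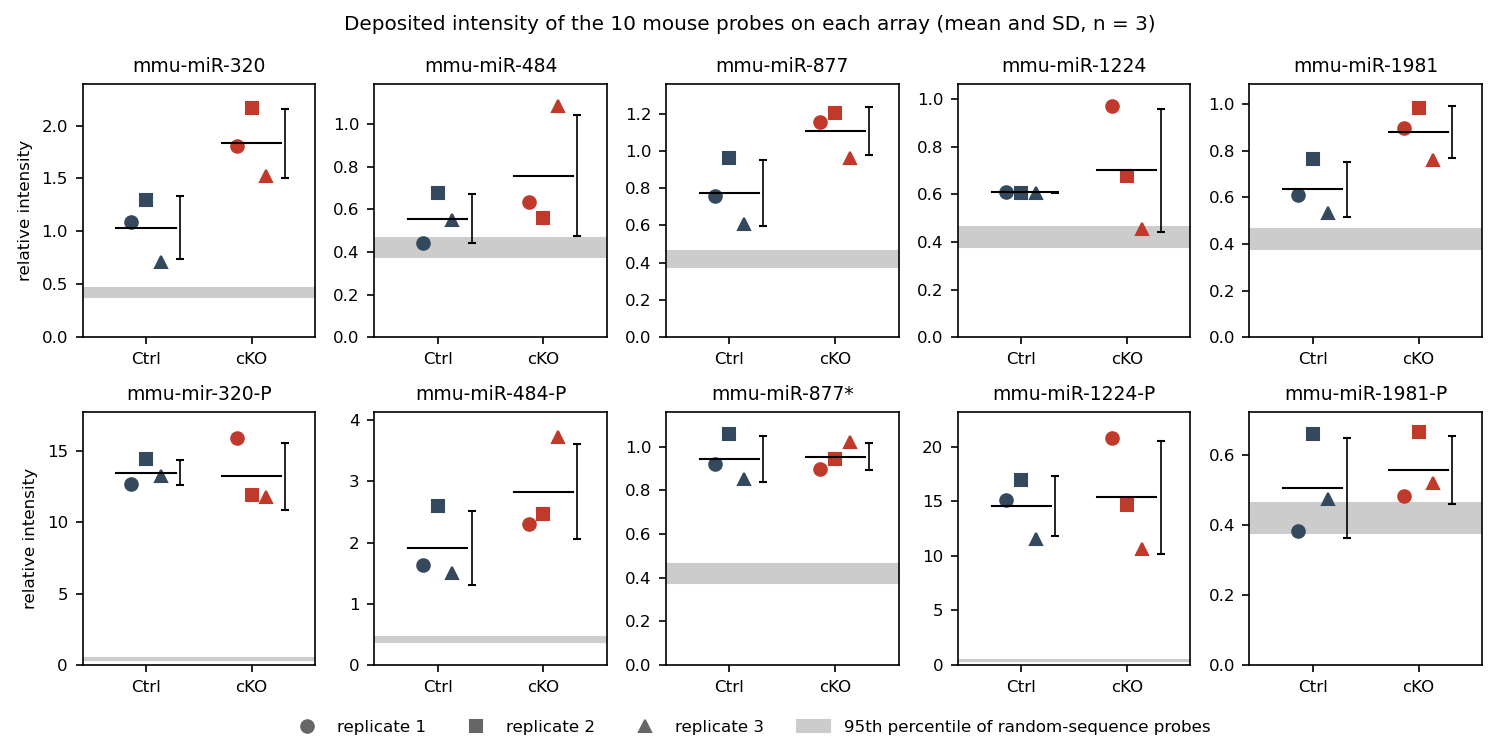
Deposited relative intensity (linear axis from 0) of the 10 mouse probes on each of the 3 Ctrl and 3 cKO arrays, with the mean as a line and the SD as a bar; symbols mark the replicate number and the grey band the range of the background level over the arrays. The cKO arrays of miR-320 lie between 1.52 and 2.16 and those of Ctrl between 0.709 and 1.298, whereas the values of miR-484, miR-1224 and the -P probes overlap.

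Of the capped hairpins, mmu-miR-320 had the widest gap between the groups. Its relative intensity was 1.81, 2.16 and 1.52 on cKO arrays 1 to 3 and 1.09, 1.298 and 0.709 on Ctrl arrays 1 to 3. Every cKO array was above every Ctrl array. The means were 1.83 ± 0.322 and 1.03 ± 0.299 (SD, n = 3 each), and cKO minus Ctrl was 0.85 ± 0.27 on the log2 scale (SE; 95% interval 0.27 to 1.44; limma adjusted p = 0.0837), which did not pass. The labels' replicate number as a block gave an adjusted p of 0.0299 in limma, which passed, and leaving out cKO replicate 3 gave 0.00691. It also passed after subtraction of the random-probe level (0.0162) and with values below 1 set to 1 (0.0361). Over all settings tried the adjusted p ran from 0.00691 to 0.466, and the difference from 0.28 to 1.23. Quantile normalization gave 0.44 and snoRNA and GAPDH scaling 0.28.

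The -P probe of miR-320 showed no such gap between the groups, but its 95% interval overlaps that of the mature probe. The test of unequal change given below did not pass in the main fit. The -P probe read 15.95, 11.9 and 11.8 in cKO and 12.7, 14.5 and 13.3 in Ctrl. The cKO values lay on both sides of the Ctrl values. cKO minus Ctrl was -0.04 ± 0.27 on the log2 scale (SE; 95% interval -0.63 to 0.54; limma adjusted p = 0.974), its sign turned in 4 of 16 other settings, and quantile normalization gave -0.44.

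mmu-miR-484, the second capped hairpin, read 0.632, 0.558 and 1.08 in cKO and 0.444, 0.674 and 0.551 in Ctrl. Only cKO array 3 lay above all Ctrl arrays. Its log2 difference was 0.40 ± 0.24 (SE; 95% interval -0.11 to 0.92; limma adjusted p = 0.449), and 0.12 without cKO replicate 3. The -P probe of miR-484 read 2.30, 2.47 and 3.73 in cKO and 1.64, 2.6001 and 1.496 in Ctrl, again with the highest value on cKO array 3 and with overlap through Ctrl array 2. Its difference was 0.58 ± 0.31 on the log2 scale (SE; 95% interval -0.09 to 1.25; limma adjusted p = 0.396). Mouse GAPDH was likewise highest on cKO array 3, at 1.99 against 0.917 and 1.11 on the other cKO arrays; its part in the miR-484 values was not tested.

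Among the mirtrons, mmu-miR-877 and mmu-miR-1981 were close to each other in size. mmu-miR-877, from Abcf1, read 1.16, 1.20 and 0.961 in cKO and 0.757, 0.9596 and 0.607 in Ctrl. The groups did not overlap, but cKO array 3 was nearly level with Ctrl array 2. The groups differed on the log2 scale by 0.53 ± 0.21 (SE; 95% interval 0.07 to 1.00; limma adjusted p = 0.198), and it passed without cKO replicate 3 (limma adjusted p = 0.04004; range over settings 0.04004 to 0.911). With quantile normalization the difference was 0.23, and with snoRNA and GAPDH scaling it was -0.04. Random-probe subtraction raised it to 0.95, which did not pass.

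The opposite strand of the same hairpin, mmu-miR-877*, showed no such gap. It read 0.8995, 0.943 and 1.02 in cKO and 0.921, 1.059 and 0.851 in Ctrl, which overlap throughout. The groups differed by 0.02 ± 0.19 on the log2 scale (SE; 95% interval -0.39 to 0.43; limma adjusted p = 0.980). No test of the difference between the 2 strands was run, and their intervals overlap.

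mmu-miR-1981, from Mtarc2, read 0.897, 0.981 and 0.760 in cKO and 0.607, 0.764 and 0.532 in Ctrl. Overlap came down to cKO array 3, which lay just under Ctrl array 2. The log2 difference was 0.48 ± 0.19 (SE; 95% interval 0.07 to 0.89; limma adjusted p = 0.190), it passed without cKO replicate 3 (limma adjusted p = 0.0347; range over settings 0.0347 to 0.785), and it was 0.25 with quantile normalization and -0.10 with snoRNA and GAPDH scaling. Random-probe subtraction raised the difference of the mature probe to 1.02, which did not pass. The -P probe of miR-1981 was near background, read 0.483, 0.666 and 0.518 in cKO and 0.382, 0.660 and 0.474 in Ctrl, and exceeded background on 3 cKO and 2 Ctrl arrays. Its log2 difference was 0.16 ± 0.20 (SE; 95% interval -0.26 to 0.58; limma adjusted p = 0.829).

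mmu-miR-1224, from Vwa5b2, was the third mirtron. It read 0.971, 0.677 and 0.455 in cKO and 0.611, 0.607 and 0.605 in Ctrl. The Ctrl arrays were nearly equal while the cKO arrays spanned them on both sides. On the log2 scale cKO minus Ctrl was 0.14 ± 0.23 (SE; 95% interval -0.35 to 0.63; limma adjusted p = 0.856), and -0.13 without cKO replicate 1. Its -P probe read 20.9, 14.6 and 10.6 in cKO and 15.2, 17.0 and 11.5 in Ctrl, with a log2 difference of 0.04 ± 0.31 (SE; 95% interval -0.63 to 0.72; limma adjusted p = 0.980). Both probes were highest on cKO array 1 and lowest on cKO array 3, and the sign of both differences turned with quantile normalization and with snoRNA and GAPDH scaling.

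**Figure D2:**
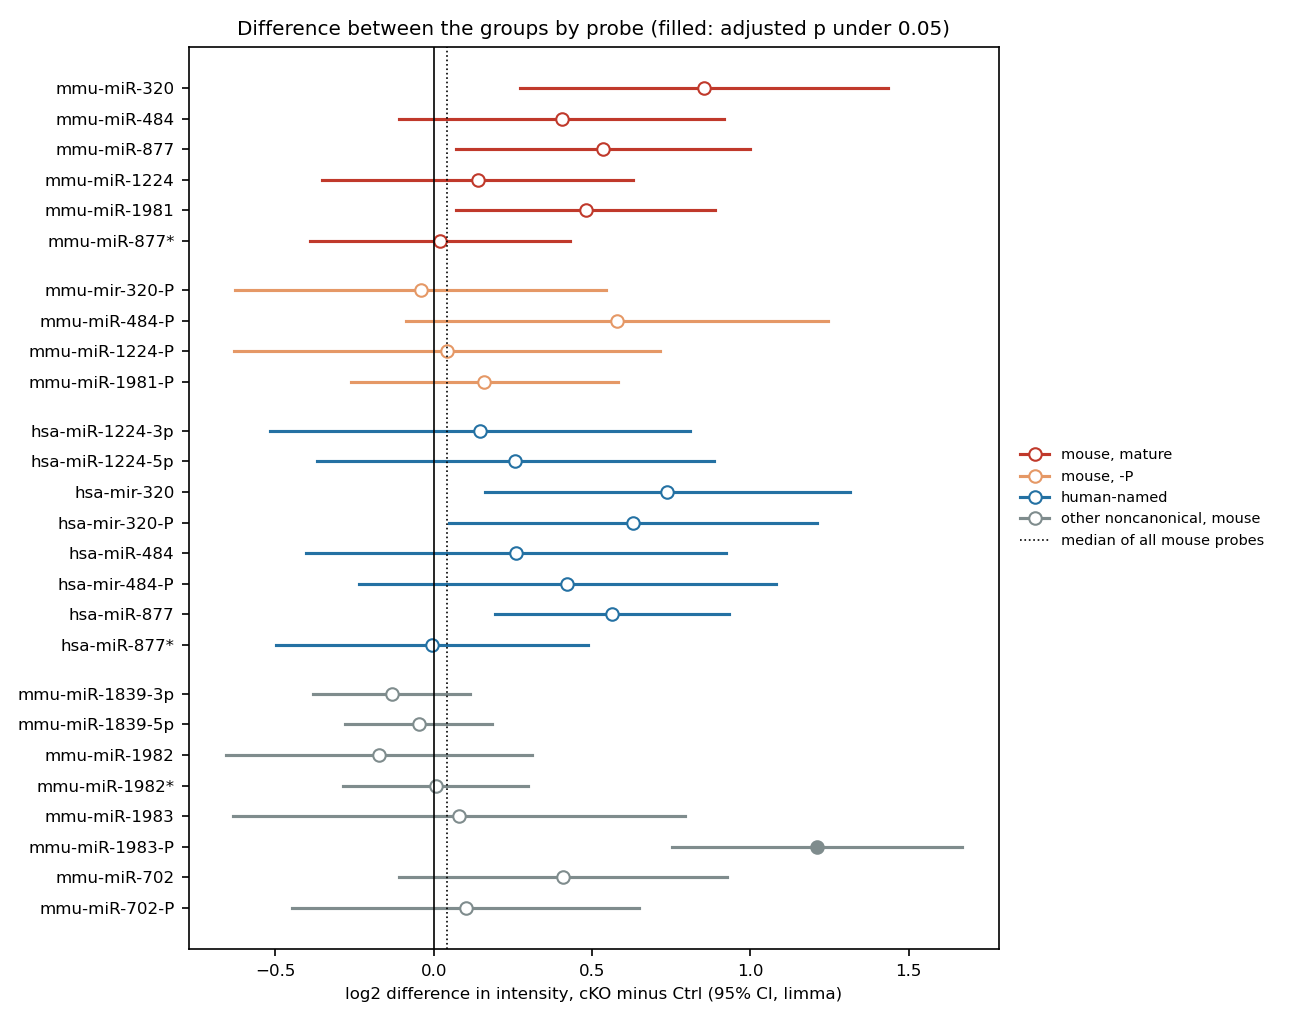
Log2 difference in intensity, cKO minus Ctrl (points), with 95% intervals from limma (lines), for the mouse mature and -P probes, the same-named human probes and 8 probes of other noncanonical miRNAs; filled points passed the test and the dotted line is the median of all mouse probes (0.04). The intervals of mature miR-320, miR-877 and miR-1981 lie above 0, and of all probes drawn the single filled one is miR-1983-P.

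The mature probes of miR-320, miR-877 and miR-1981 ordered the arrays alike. In cKO the order from high to low was array 2, 1, 3 for each of them, and in Ctrl it was also 2, 1, 3, in the deposited units and in scanner units. The same order in both groups was found in 8.64% of the 440 mouse probes above background on all 6 arrays (38 probes, these 3 included). Ctrl array 2 gave the highest Ctrl value for 9 of the 10 member probes, and that array also had the highest mean of the random-sequence probes, 0.388 against 0.357 and 0.366. cKO array 3 gave the lowest cKO value for 6 of the 10 and the highest for 3, which were both probes of miR-484 and miR-877*. The median of all mouse probes was likewise highest in Ctrl on array 2 (0.474 against 0.437 and 0.427). In cKO it was lowest on array 3 (0.434 against 0.481 and 0.458). The share of all mouse probes with these extremes was not counted, so the counts cannot be read as particular to the members.

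Whether mature and -P probes changed unequally was tested on the log2 difference between them on each array, over all 359 such pairs of mouse probes. Of the 4 pairs of the Drosha-independent miRNAs 0 passed, where 13.4% of all pairs did in either direction (29 higher and 19 lower in cKO). At an unadjusted p under 0.05, 1 of the 4 was higher, miR-320, beside 49 higher and 33 lower of all 359. It was also the single pair of the 4 whose groups did not overlap, cKO being higher, as in 18.1% of all pairs. The difference is a ratio within an array, so that it shows unequal change and not which of the 2 probes moved.

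For miR-320 the mature minus -P value was -3.14, -2.46 and -2.96 in cKO and -3.54, -3.48 and -4.23 in Ctrl on the log2 scale. The groups did not overlap, cKO array 1 being nearest to Ctrl. The change was 0.90 ± 0.33 (SE; 95% interval 0.19 to 1.61; limma adjusted p = 0.0998), and with the replicate number as a block it passed (limma adjusted p = 0.0496; range over settings 0.0496 to 0.394). For miR-1981 the value was 0.89, 0.56 and 0.55 in cKO and 0.67, 0.21 and 0.17 in Ctrl, a change of 0.32 ± 0.23 (SE; 95% interval -0.18 to 0.82; limma adjusted p = 0.452) with overlap through Ctrl array 1.

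The other mature minus -P values overlapped widely. For miR-1224 they were -4.42, -4.43 and -4.55 in cKO and -4.63, -4.81 and -4.25 in Ctrl, a change of 0.10 ± 0.29 (SE; limma adjusted p = 0.879). The 3 cKO arrays lay within the range of Ctrl and close together, although each probe of miR-1224 alone varied widely among them. For miR-484 they were -1.86, -2.15 and -1.78 in cKO and -1.88, -1.95 and -1.44 in Ctrl, a change of -0.17 ± 0.27 (SE; limma adjusted p = 0.742).

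**Figure D3:**
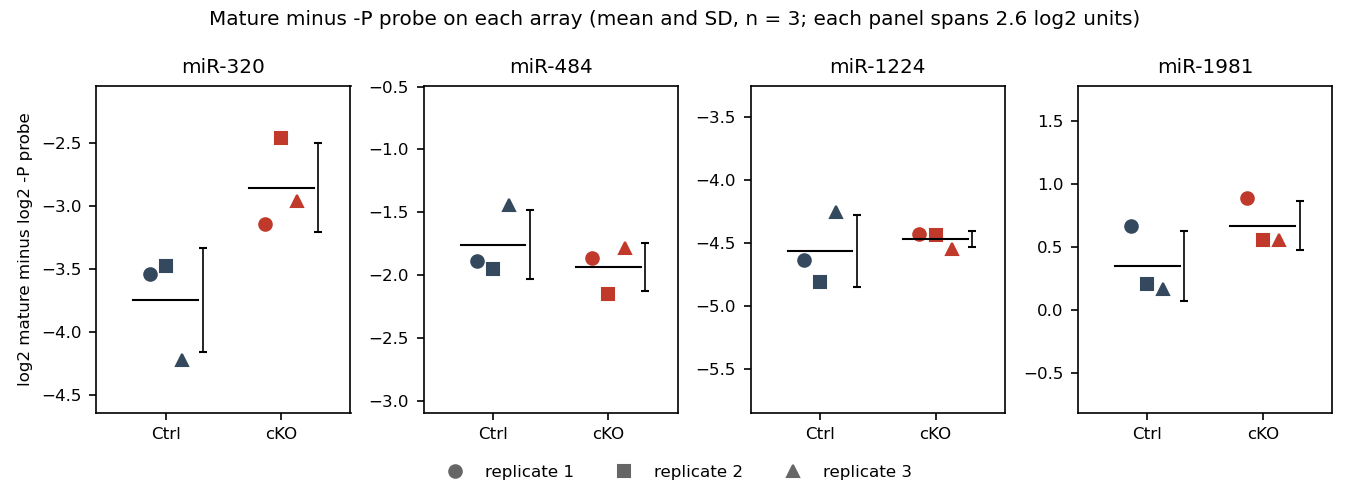
Log2 mature probe minus log2 -P probe on each of the 3 Ctrl and 3 cKO arrays for the 4 miRNAs that have both, with the mean as a line and the SD as a bar; all panels span the same number of log2 units, so their spreads can be compared but their levels cannot. For miR-320 the cKO arrays lie between -3.14 and -2.46 and the Ctrl arrays between -4.23 and -3.48, and for the other miRNAs the groups overlap.

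The same-named human probes gave values on the same 6 arrays and are no independent evidence. Of 8, 0 passed (limma, adjusted over 1734 human-named probes, of which 1.9% rose), and 3 were higher at an unadjusted p under 0.05, beside 178 higher and 40 lower of all 1734. All cKO arrays lay above all Ctrl arrays for 3 of the 8 (miR-320, its -P probe and miR-877), as for 11.5% of human-named probes. For 6 names present in both species the sign of the difference was shared in 4, and the exceptions were miR-877*, near 0 for both, and the -P probe of miR-320.

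hsa-mir-320 read 4.01, 4.87 and 4.03 in cKO and 2.25, 3.07 and 2.46 in Ctrl, all cKO arrays above Ctrl, with a log2 difference of 0.74 ± 0.26 (SE; 95% interval 0.16 to 1.31; limma adjusted p = 0.230). Its -P probe read 4.03, 3.20 and 3.28 in cKO and 1.88, 2.73 and 2.23 in Ctrl, with a log2 difference of 0.63 ± 0.26 (SE; 95% interval 0.05 to 1.21; limma adjusted p = 0.350), beside -0.04 for the mouse -P probe. The difference between the mouse and human -P probes was not tested. The probe sequences are not among the sources used here.

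hsa-miR-877 read 1.10, 1.12 and 1.10 in cKO and 0.756, 0.802 and 0.690 in Ctrl, with no overlap and the smallest SD in cKO of the 8 (0.0122), with a log2 difference of 0.56 ± 0.17 (SE; 95% interval 0.19 to 0.93; limma adjusted p = 0.147). For hsa-miR-877* the log2 difference was -0.01 ± 0.22, as near 0 as for the mouse star probe. It was 0.26 ± 0.30 for hsa-miR-484, 0.42 ± 0.30 for its -P probe, 0.26 ± 0.28 for hsa-miR-1224-5p and 0.15 ± 0.30 for hsa-miR-1224-3p (SE), none past the test. On cKO array 3 hsa-miR-484 was highest of the 6 arrays at 1.36 and hsa-mir-484-P was the lowest of cKO at 4.46, whereas the mouse -P probe was highest there.

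The array also held 10 human probes for miR-320 named with a letter. Of these 0 passed, and 2 were higher at an unadjusted p under 0.05 in limma, beside 178 of all 1734. For 4 (miR-320a, its -P probe, miR-320c and miR-320d) all cKO arrays lay above all Ctrl arrays, as for 11.5% of the 1734 human-named probes. These probes were chosen after their values were seen. hsa-miR-320c read 0.968, 1.07 and 0.915 in cKO and 0.647, 0.648 and 0.508 in Ctrl, with a log2 difference of 0.72 ± 0.17 (SE; 95% interval 0.35 to 1.09; limma adjusted p = 0.0587). The other log2 differences included 0.61 ± 0.16 for hsa-miR-320d, 0.55 ± 0.27 for hsa-miR-320a, 0.08 ± 0.22 for hsa-miR-320b and 0.05 ± 0.26 for hsa-miR-320e (SE). Of the 10 differences 8 were above 0 and 2 below. Those below were hsa-miR-320b2-P at -0.12 ± 0.12 and hsa-miR-320e-AP at -0.12 ± 0.22 (SE). The -P probes of miR-320b1 and miR-320c1 were above background on 0 arrays. RNAs of these names are close in sequence, and probes for near-identical RNAs can share signal. Whether the hsa-miR-320a and hsa-mir-320 probes detect separate RNAs was not checked, so they may not be separate members.

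Other miRNAs reported to arise by noncanonical routes were read from a list of 4 (miR-702, miR-1839, miR-1982 and miR-1983; 8 probes). Of these 8 probes 1 rose, 0 fell and 7 did not pass, where 6.46% of all 1083 mouse probes rose and 0.369% fell. Their median log2 difference was 0.04, the same to 2 decimals as over all mouse probes. The one that rose was the -P probe of miR-1983, whose hairpin holds a sequence derived from a transfer RNA. It read 1.52, 1.78 and 1.29 in cKO and 0.762, 0.654 and 0.563 in Ctrl, so that no arrays overlapped, and cKO exceeded Ctrl by 1.21 ± 0.21 on the log2 scale (SE; limma adjusted p = 0.00306). Its mature probe read 5.53, 5.66 and 2.91 in cKO and 3.68, 4.35 and 4.82 in Ctrl and did not pass (0.08 ± 0.33, SE; limma adjusted p = 0.958). The mature minus -P value of miR-1983 fell by 1.13 ± 0.32 on the log2 scale (SE; limma adjusted p = 0.0313), where that of miR-320 was 0.90 higher without passing.

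Elsewhere in that list, miR-702 lies inside the span of Plod3, a gene of collagen modification, and miR-1982 inside Oaz1, which controls polyamine synthesis. The hairpin of Mir1982 also begins with GU and ends with AG, while that of Mir702 does not. miR-702 read 1.21, 1.33 and 1.26 in cKO and 0.869, 1.33 and 0.752 in Ctrl, and the groups differed by 0.41 ± 0.24 on the log2 scale (SE; limma adjusted p = 0.450). miR-1982 gave -0.17 ± 0.22 and miR-1839-5p, from a small nucleolar RNA, -0.05 ± 0.11 (SE), and miR-1839-5p exceeded background on 2 cKO arrays and 0 Ctrl arrays.

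**Figure D4:**
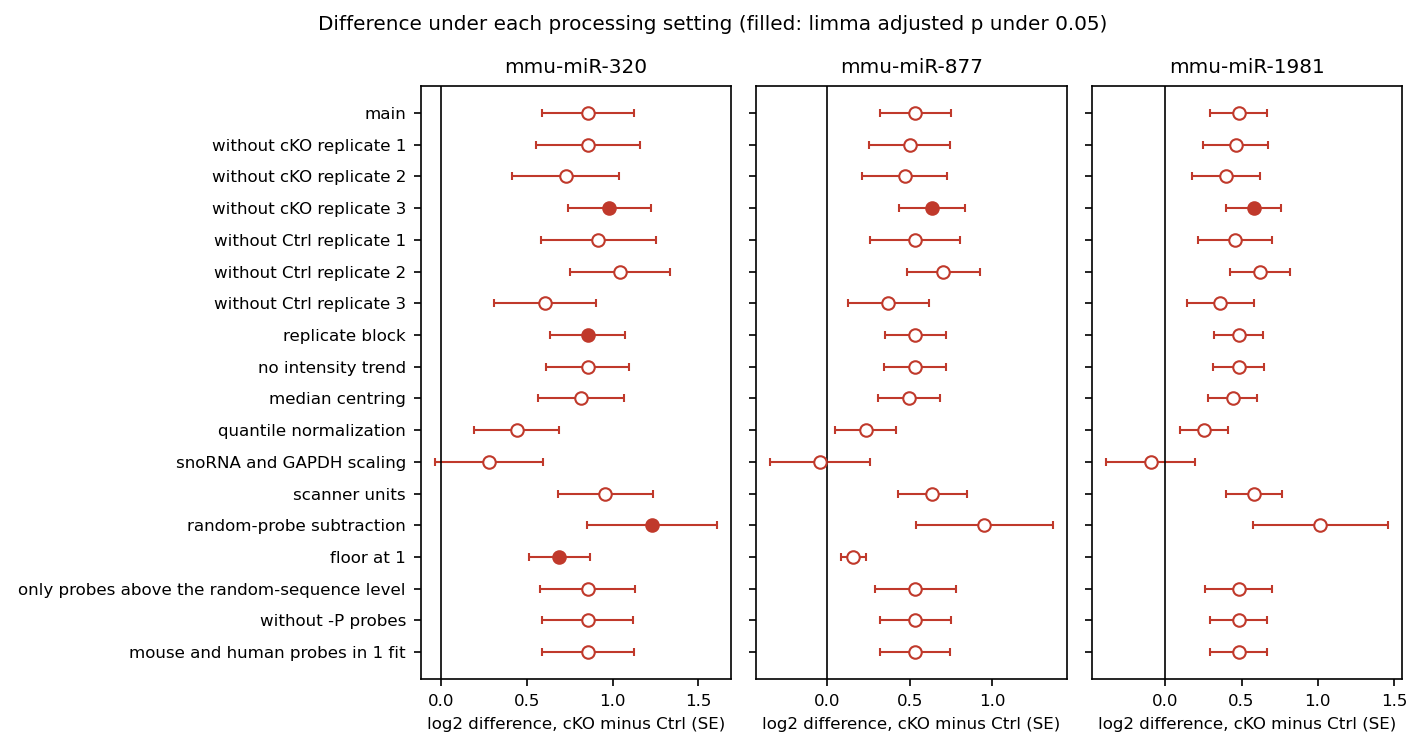
Log2 difference, cKO minus Ctrl (points), with its SE (bars), of the mature mouse probes of miR-320, miR-877 and miR-1981 under each processing setting; filled points have a limma adjusted p under 0.05. miR-320 passed in 4 of 17 alternatives, and miR-877 and miR-1981 in 1 each, the run without cKO replicate 3; with snoRNA and GAPDH scaling the points of miR-877 and miR-1981 lie just below 0.

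For each miRNA the 2 most similar mouse probes outside the members were named by Pearson's r of log2 intensity over the 6 arrays. The candidates were 431 probes above background on all of these arrays. Member probes were not candidates, and some correlated as closely: mmu-miR-877 with mmu-miR-1981 at r = 0.99 and with mmu-miR-320 at r = 0.98. The r is a description: both groups enter it, so a shared difference between them raises it. miR-320 was nearest to the -P probes of miR-1903 (r = 0.98) and miR-1900 (r = 0.98), and miR-1981 to miR-1957-P (r = 0.99) and miR-375 (r = 0.98). miR-1224 was nearest to miR-326-P (r = 0.99) and miR-99b* (r = 0.97), miR-484 to miR-19b and miR-466j (r = 0.95 each), and miR-877* to miR-1186b (r = 0.93) and miR-500-P (r = 0.92). Of these 10 probes 0 passed limma's test and their adjusted p ran from 0.0893 to 0.995.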

How the data were processed

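The deposited table gives linear intensity per probe; no source used here names the authors' image software, background correction or normalization. Per the labels, 5 µg of total RNA per mouse was labelled with biotin by reverse transcription, and each array holds 1 sample in 1 colour. When an array is multiplied so that its maximum becomes 65535, the scanner limit (constants of 829 to 987.5), at least 99.97% of its values are multiples of 0.25 within a tolerance of 0.01. The deposited intensity was therefore read as scanner intensity over 1 constant per array.

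Deposited values were taken to log2 with no other scaling. limma 3.58.1 (R 4.3.3; lmFit and eBayes with trend, two-sided) was fitted over 1083 mouse-named, 1734 human-named and 359 mature minus -P rows, each adjusted by Benjamini-Hochberg, with a threshold of 0.05. The fits were tested on simulated data. Figures used Python 3.11.15 and matplotlib 3.10.9. The 3 probes named has-, the 93 mismatch probes and probes of other classes were left out of the fits.

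Named are every member probe, the same-named human probes, the list of 4 other miRNAs and the likeness probes by the rule given. The probes of human miR-320 with a letter were added after their values were seen. The members and lists were chosen with earlier results of these data known. Hairpin and mature sequences are from RefSeq (GRCm38.p6), matched by symbol; 4 of 5 miRNAs matched.

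The labels number the mice 1 to 3 in both groups. Deviations from the group means correlated between same-numbered arrays at 0.13, 0.14 and 0.19 over 604 mouse probes, all above 0.1. Arrays cKO 2 and Ctrl 1, which differ in number, also correlated, at 0.15. These values therefore do not show that the numbers pair the samples, and the labels do not state a pairing. The main fits used no block, and the replicate block is given as an alternative setting where it changes a call. With 3 arrays per group the number of arrays limits the precision.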

Additional observations from a re-analysis of the deposited data

How the results depend on the processing

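Of 10 mouse probes, 1 passed with the replicate block, with random-probe subtraction and with a floor at 1 (7 tested), each time miR-320. Over all mouse probes 95 of 1083 passed with the block, 94 of 1083 with the subtraction and 79 of 347 with the floor. From 0 to 3 of the 10 passed when 1 array was left out. Of the members' mature minus -P pairs 1 passed with the replicate block, beside 59 of all 359 pairs. Of the human probes 2 passed without the intensity trend (miR-320 and miR-877). The block changed no other member call. All mouse probes called, 74, became 40 under quantile normalization, 345 scaled to snoRNA and GAPDH probes, and 34 to 129 with 1 array left out (cKO replicate 2 left out 46, cKO replicate 3 129, Ctrl replicate 1 34, Ctrl replicate 3 48). Human calls, 35, became 76 with the replicate block, 55 without the trend, 7 under quantile normalization, 729 scaled to snoRNA and GAPDH probes, 103 with random-probe subtraction and 14 with the floor. They ran from 0 to 55 with 1 array left out: 6 without cKO replicate 2, 55 without cKO replicate 3, 8 and 7 without Ctrl replicates 2 and 3, and 0 without Ctrl replicate 1, where limma gave 150 at an unadjusted p under 0.05. Pair calls, 48, became 18 with random-probe subtraction, 21 with the floor (64 pairs), 26 for probes above the random-sequence level (150 pairs), and 18 to 57 with 1 array left out (30 without cKO replicate 2, 18 without Ctrl replicate 1, 26 without Ctrl replicate 3).

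Differences that changed sign were all short of the threshold on both sides. With snoRNA and GAPDH scaling they were -0.44 for miR-1224, -0.53 for miR-1224-P, -0.10 for miR-1981, -0.42 for miR-1981-P, -0.17 for miR-484, -0.041 for miR-877 and -0.56 for miR-877*, and for human probes -0.43 for miR-1224-3p, -0.32 for miR-1224-5p, -0.32 for miR-484, -0.15 for miR-484-P and -0.013 for miR-877. With quantile normalization they were -0.050 for miR-1224, -0.34 for miR-1224-P and -0.26 for miR-877*, and -0.13 and -0.039 for human miR-1224-3p and miR-1224-5p. miR-877* gave -0.017 with median centring and -0.018 with the floor. Scanner units, which raise the median of all mouse probes by 0.10, gave 0.061 for miR-320-P and 0.096 for human miR-877*. Random-probe subtraction gave 0.0064 for human miR-877* and 0.31 for mature minus -P of miR-484. Leaving out 1 array spanned -0.13 to 0.42 for miR-1224, -0.21 to 0.28 for miR-1224-P, -0.023 to 0.37 for miR-1981-P, -0.18 to 0.033 for miR-320-P, -0.051 to 0.11 for miR-877*, -0.051 to 0.41 for human miR-1224-3p, -0.17 to 0.51 for human miR-484, -0.077 to 0.089 for human miR-877* and -0.025 to 0.25 for mature minus -P of miR-1224. The causes were not tested. No probe at the floor on all arrays was tested with the floor, so miR-1224, miR-1981 and miR-1981-P have no value there. The order of arrays in scanner units was added after seeing the data. Probes near the random-sequence level, such as miR-1981-P, carry little signal over background, which limits what can be read from them. The 6 mature member probes were above background on all arrays, but some narrowly. mmu-miR-484 read 0.444 on Ctrl array 1, where background was 0.423. On Ctrl array 3 mmu-miR-1981 read 0.532, with background at 0.445, and on cKO array 3 mmu-miR-1224 read 0.455, with background at 0.377.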
